A study of Mus musculus with 15 samples.

Results

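The keratin genes of the mouse eyeball were described across 4 groups of arrays. A gene was a member when its symbol was Krt followed by a number, with or without 1 letter, and when a probe set of the array carried that symbol alone. This gave 53 keratins of 22180 genes, each represented by its probe set with the highest mean over the 15 arrays. Eyes came from R6/1 mice at 6 months (n = 3), wild type (WT) mice at 6 months (n = 4), R6/2 mice at 9 weeks (n = 4) and WT mice at 9 weeks (n = 4). R6/1 and R6/2 are transgenic models of Huntington's disease that carry a fragment of human huntingtin (exon 1) with 131 ± 3.1 and 162 ± 2.8 CAG repeats (SD), and the WT mice were their C57BL/6J littermates. The isolated RNA was pooled into the samples, the number of eyes in a pool is not given in the sources used here, and p-values therefore measure the spread between these arrays. The transgene is driven by the human huntingtin promoter and widely expressed, and the RNA of every array is described as that of the eyeball. Transcripts of skeletal muscle and of glands were also present, at levels that varied between arrays.

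Keratins form the intermediate filaments of epithelial cells, in which a type I chain pairs with a type II chain. Stratified epithelia make pairs that change from the basal to the suprabasal layers, simple epithelia make the pair Krt8 and Krt18, and hair and nail have sets of their own. In the eye, Krt12 is the cornea-specific type I keratin, Krt15 and Krt14 mark basal cells, and Krt4 and Krt13 are a pair of non-cornified stratified epithelia such as the conjunctiva. Of the 53 genes, 27 lie on chromosome 11 and 26 on chromosome 15, where Krt8 and Krt18 are neighbours among protein-coding genes.

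The tissue label was checked first. The mean level of 7 transcripts listed as defining the eyeball was at least 7.95 in every array. Cryaa, a lens crystallin, lay between 10.80 and 11.36 on the log2 scale. Gnat1, the transducin of rods, lay between 10.44 and 11.17, and Rpe65 of the pigment epithelium between 6.38 and 7.97. In R6/1, 3 of the 7 were lower with an unadjusted p below 0.05 (limma), which 3.11% of all genes had. These were Sag (-0.65), Gnat1 (-0.36) and Rpe65 (-0.46), and none had an adjusted p below 0.2. Aldh3a1, an abundant enzyme of corneal epithelium, lay between 8.46 and 9.37. Other transcripts differed in how they fell over the arrays. The mean level of 6 skeletal muscle genes was 6.03 to 7.14 in R6/1 arrays, against 7.37 to 8.02 in WT replicates 1, 2 and 3 and 5.70 in the array labelled WT replicate 4, all from the older cohort. At 9 weeks the same mean was 5.33 to 6.68 in R6/2 arrays, against 7.33 to 7.85 in WT arrays, without overlap. The median log2 difference of these 6 genes was -1.42 in R6/2, beside 0.03 over all genes tested. All 6 had an unadjusted p below 0.05 (limma), which 10% of all genes had. Only 1 of them, Actn3, also had an adjusted p below 0.2 (0.0735, limma), where 0.0992% of all genes did so and were lower. The part of muscle in the keratin values was not tested. The methods give 4 R6/1 and 3 WT samples at 6 months, whereas the labels give 3 and 4, so each comparison that uses this age was also made with this array counted as R6/1. Interquartile ranges of 3 arrays were narrow, at 2.26 for R6/1 replicate 3 and 2.17 for WT replicate 3 of the older cohort and 2.43 for WT replicate 3 of the younger one, whereas the others lay between 2.47 and 2.61.

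A keratin was called bright when its mean over all arrays was above 4.47, the mean upper quartile of the arrays. This held for 10 of 53 keratins, and 8 of these were in the 50% of genes with the higher interquartile range over arrays, which alone were tested. Krt18, with a mean of 4.94, was the last inside the limit and Krt10, with 3.90, was the first outside it. Bright keratins were the corneal Krt12 (1 of 1 in its class), the basal Krt14 and Krt15 (2 of 2), the non-cornified Krt4 and Krt13 (2 of 2), the simple epithelial Krt8 and Krt18 (2 of 5), the stress-inducible Krt6a and Krt6b (2 of 4) and the suprabasal Krt80 (1 of 8). None of 9 inner root sheath keratins, 14 hair shaft keratins or 8 others was bright. Of the bright keratins, 6 were above the limit in every array, namely Krt12, Krt6b, Krt6a, Krt15, Krt80 and Krt8. Krt5, the basal partner of Krt14, was not a member because its probe set is annotated to both Krt5 and Krt6a. That probe set lay between 7.95 and 9.04. Krt6a and Krt6b are close copies and their probe sets may share signal.

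The promoters of Krt12, Krt8, Krt18 and Krt79 are shown because Krt12 is the cornea-specific member and because the others were high in the same arrays. They are RefSeq sequences of GRCm38.p6, running 5′ to 3′ from 250 bases before to 50 bases after the transcript start that the table uses, which for Krt12 lies inside the span annotated to the gene. Capitals mark TATAAA, the letters of the TATA box, and CACCC, the core letters bound by Krüppel-like factors, each searched on both strands.
Krt12 (chr11:99422210-99422509, minus strand): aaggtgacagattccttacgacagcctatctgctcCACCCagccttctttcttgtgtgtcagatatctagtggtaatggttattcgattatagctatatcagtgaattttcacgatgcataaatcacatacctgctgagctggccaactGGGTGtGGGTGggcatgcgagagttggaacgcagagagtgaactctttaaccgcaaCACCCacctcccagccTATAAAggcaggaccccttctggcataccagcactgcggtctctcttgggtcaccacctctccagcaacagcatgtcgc
Krt8 (chr15:102004293-102004592, minus strand): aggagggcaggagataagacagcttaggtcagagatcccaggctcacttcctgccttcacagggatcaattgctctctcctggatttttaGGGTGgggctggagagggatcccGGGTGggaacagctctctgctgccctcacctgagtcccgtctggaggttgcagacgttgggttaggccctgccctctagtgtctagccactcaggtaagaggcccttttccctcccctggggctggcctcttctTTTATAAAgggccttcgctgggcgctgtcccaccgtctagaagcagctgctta
Krt18 (chr15:102027966-102028265, plus strand): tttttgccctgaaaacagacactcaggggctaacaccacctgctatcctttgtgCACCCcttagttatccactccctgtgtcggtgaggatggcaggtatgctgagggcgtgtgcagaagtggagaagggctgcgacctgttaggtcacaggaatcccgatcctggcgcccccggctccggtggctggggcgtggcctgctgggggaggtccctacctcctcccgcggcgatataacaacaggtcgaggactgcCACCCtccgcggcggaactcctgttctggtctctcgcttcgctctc
Krt79 (chr15:101940275-101940574, minus strand): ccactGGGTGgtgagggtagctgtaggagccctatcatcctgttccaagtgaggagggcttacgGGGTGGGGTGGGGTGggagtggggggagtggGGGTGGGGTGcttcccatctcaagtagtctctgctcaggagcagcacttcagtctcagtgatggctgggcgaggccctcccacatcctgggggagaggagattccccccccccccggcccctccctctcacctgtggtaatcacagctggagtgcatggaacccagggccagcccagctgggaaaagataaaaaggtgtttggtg
Krt12 had 1 match to TATAAA and 4 to CACCC, and Krt8 had 2 matches to TATAAA, which overlap on opposite strands, and 2 to CACCC. Krt18 had 2 matches to CACCC and Krt79 had 6, and neither had one to TATAAA. Among 35 keratin promoters in the table, 19 (54.3%) held TATAAA and 29 (82.9%) held CACCC, whereas of all 27025 promoters 14.2% and 56.7% did. A match is a description of letters and no measure of binding.

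**Figure D1:**
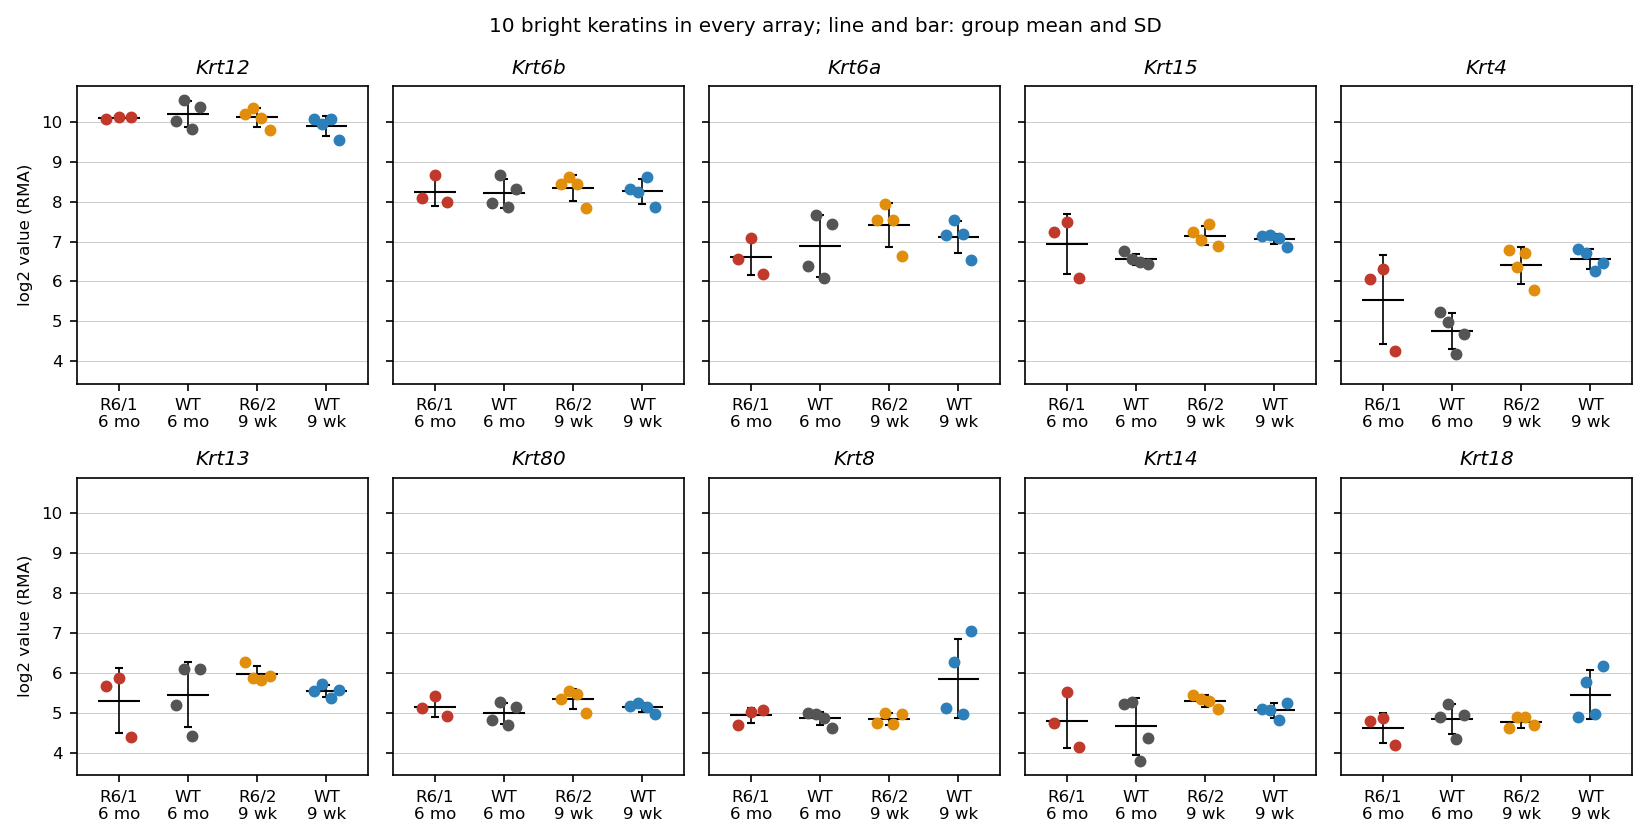
Log2 value (RMA) of the 10 bright keratins in every array, in the order R6/1, WT (both 6 months), R6/2, WT (both 9 weeks). Points are arrays in replicate order, and the line and bar are the mean and SD of the group. Krt12 lies between 9.54 and 10.56 in all arrays, Krt4 is lower in every WT array at 6 months than in any WT array at 9 weeks, and Krt8 and Krt18 stand out in WT replicates 2 and 4 at 9 weeks.

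The first question was whether keratin transcripts differ in eyes of R6/1 mice. None of the 28 keratins tested was called at p below 0.05 and adjusted p below 0.2 (limma with Benjamini-Hochberg adjustment), where 0.0361% of all genes were called higher and 0.018% lower. None had an unadjusted p below 0.05 either, which 3.11% of all genes had. Of the 28, 17 were higher and 11 lower, with a median log2 difference of 0.06 beside 0.01 over all genes tested. In 53 keratins the values of the groups overlapped, whereas 1.46% of all genes did not overlap and were higher and 1.68% did not overlap and were lower.

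Krt12 was 10.07, 10.13 and 10.13 in R6/1 arrays, against 10.02, 10.56, 9.83 and 10.39 in WT arrays at 6 months. The R6/1 values lay inside the WT range. The log2 difference was -0.09 (95% interval -0.47 to 0.29, limma over all genes). Krt4 was 6.05, 6.30 and 4.26 in R6/1 arrays, against 5.22, 4.97, 4.18 and 4.67 in WT arrays. R6/1 replicates 1 and 2 were above all WT arrays, while replicate 3, an array with a narrow range of values, was near the lowest. The log2 difference was 0.78 ± 0.38 (SE, unadjusted p = 0.0596 by limma), and it was 1.41 without R6/1 replicate 3 and 0.53 with the array labelled WT replicate 4 counted as R6/1. Krt15 was 7.24, 7.50 and 6.07 in R6/1 arrays, against 6.76, 6.55, 6.48 and 6.44 in WT arrays, and again replicate 3 was the low one. Krt13 was 5.66, 5.88 and 4.38 in R6/1 arrays, against 5.21, 6.10, 4.42 and 6.10 in WT arrays, so that each group held 1 low array, replicate 3. Apart from Krt12 and Krt4, the 95% intervals of the bright keratins ran from -1.08 for Krt6a to 0.90 for Krt15, and all held 0.

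**Figure D2:**
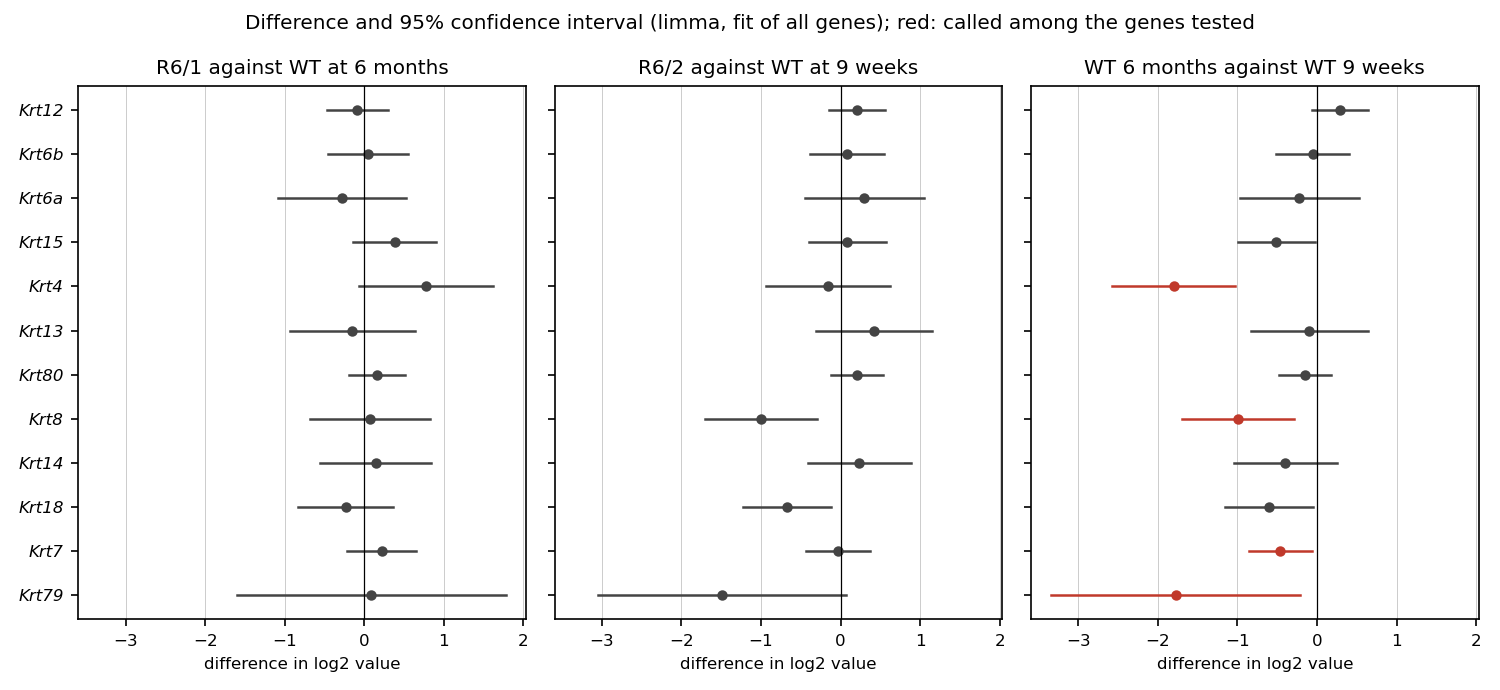
Difference in log2 value (points) with its 95% confidence interval (lines; limma, fit of all genes) for the 10 bright keratins, Krt7 and Krt79, with R6/1 minus WT (6 months) on the left, R6/2 minus WT (9 weeks) in the middle and older minus younger WT on the right. Red marks keratins called among the genes tested, which were Krt4, Krt8, Krt7 and Krt79 in the comparison of ages.

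Bright keratins were low together in some arrays, among them 2 of the 3 with a narrow range. Of the older cohort, R6/1 replicate 3 had 8 of 10 below the mean of its group with a median deviation of -0.43, and WT replicate 3 had 9 of 10 with -0.45. R6/2 replicate 4, with an interquartile range of 2.47, had 9 of 10 with -0.29. In each of these arrays 7 of the 8 bright keratins of stratified epithelia had the lowest value of the group. The third narrow array, WT replicate 3 at 9 weeks, had 5 of 10 below with a median deviation of -0.09 and 3 of these lowest values, and WT replicate 4 at 9 weeks, with an interquartile range of 2.57, had 6 of 10 with -0.12 and 5 lowest values. R6/1 replicate 2 had 0 of 10 below and a deviation of 0.45, at an interquartile range of 2.56. The upper quartile of all probe sets was also lowest in the replicates 3 of the older cohort, at 4.33 in R6/1 and 4.27 in WT. It was 4.46 in R6/2 replicate 4. How many other genes of like signal had their lowest value in these arrays was not counted, so the pattern is not shown to be particular to keratins. The part of the range of values in these deviations was not tested.

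**Figure D3:**
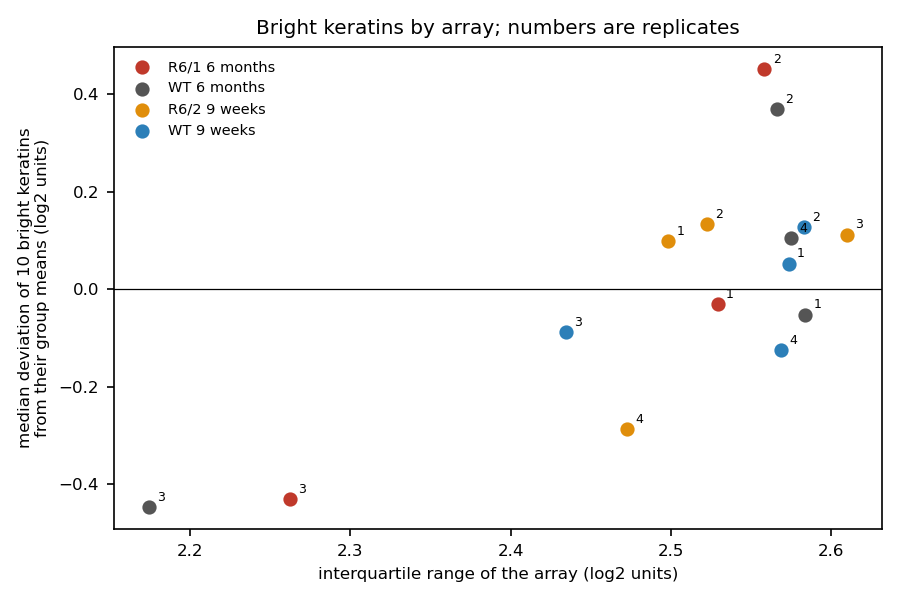
Median deviation of the 10 bright keratins from their group means (log2 units) against the interquartile range of the array (log2 units), with a point for each of 15 arrays and replicate numbers beside them. R6/1 replicate 3 (2.26, -0.43) and WT replicate 3 (2.17, -0.45) of the older cohort lie at the lower left.

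The same question was asked of R6/2 mice at 9 weeks. No keratin of 28 was called, where 0.0721% of all genes were called higher and 0.0992% lower. With unadjusted p below 0.05 there were 4 keratins (Krt81 higher, and Krt8, Krt23 and Krt79 lower), and 10% of all genes had such a p. Krt81, a hair keratin of low signal, differed by 0.43 and Krt23, which is not assigned to a class here, by -0.41. The median log2 difference of the 28 was -0.01 beside 0.03 over all genes tested, with 14 higher and 14 lower.

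Krt12 was 10.20, 10.36, 10.10 and 9.80 in R6/2 arrays, against 10.07, 9.95, 10.07 and 9.54 in WT arrays. The groups overlapped, with replicate 4 the lowest of each. The log2 difference was 0.21 (95% interval -0.15 to 0.56). Krt13 was 6.26, 5.88, 5.81 and 5.93 in R6/2 arrays, against 5.53, 5.73, 5.37 and 5.57 in WT arrays. Every R6/2 array was above every WT array, yet the difference of 0.42 ± 0.34 (SE) had an adjusted p of 0.734 by limma. The fit shares 1 spread over groups, and the SD of Krt13 was 0.20 in R6/2 and 0.15 in WT at 9 weeks and 0.81 in each group at 6 months. No keratin was called in a fit of the R6/2 and WT arrays at 9 weeks alone either. Krt78, a suprabasal keratin of low signal outside the genes tested, was 3.30 to 3.58 in R6/2 arrays, against 2.86 to 3.22 in WT arrays. These 2 keratins of 53 (3.77%) did not overlap and were higher, beside 3.54% of all genes, and none did not overlap and was lower, beside 1.69%. Krt6a, a keratin induced by stress and wounding, was 7.54, 7.93, 7.54 and 6.64 in R6/2 arrays, against 7.17, 7.54, 7.20 and 6.55 in WT arrays, so that its groups overlapped. Its log2 difference was 0.30 (95% interval -0.45 to 1.05). Differences of the other bright keratins of stratified epithelia were 0.08 for Krt6b, 0.08 for Krt15, -0.16 for Krt4, 0.21 for Krt80 and 0.23 for Krt14, and the groups overlapped in each.

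Krt8, the type II keratin of simple epithelia, was 4.74, 4.99, 4.71 and 4.98 in R6/2 arrays, against 5.12, 6.28, 4.96 and 7.05 in WT arrays. R6/2 arrays differed little among themselves, and 2 of the WT arrays, replicates 2 and 4, were far above the rest. The log2 difference was -1.0 ± 0.32 (SE, adjusted p = 0.376, limma). Krt18, its type I partner, was 4.61, 4.90, 4.88 and 4.68 in R6/2 arrays, against 4.90, 5.77, 4.96 and 6.17 in WT arrays, with the same 2 arrays above the others. The means of Krt18 were 4.77 in R6/2 and 5.45 in WT, and it was outside the genes tested. Krt79, a keratin known in mouse from the ducts of sebaceous glands, was 2.91, 2.54, 2.37 and 2.98 in R6/2 arrays, against 2.54, 5.57, 1.99 and 6.65 in WT arrays. Its signal was near the low end in all R6/2 arrays and in WT replicates 1 and 3. Without WT replicates 2 and 4 the log2 difference of Krt8 was -0.19 and that of Krt79 was 0.43. Krt8 was called lower under 6 of 24 alternatives and Krt79 under 3 of 27, among them leaving out WT replicate 3 in both.

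Some transcripts of glands were high in the same WT arrays. None of the 6 gland genes tested was called in R6/2, where 0.0721% of all genes were called higher and 0.0992% lower. Their median log2 difference was -1.04, beside 0.03 over all genes tested. Fasn (-1.99, adjusted p = 0.212) and Elovl3 (-3.10, adjusted p = 0.449) alone had an unadjusted p below 0.05 (limma), which 10% of all genes had. Elovl3, an elongase of fatty acids in sebaceous and Harderian glands, was 1.86, 1.86, 3.04 and 7.14 in R6/2 arrays, against 6.04, 9.11, 1.64 and 9.51 in WT arrays at 9 weeks. The mean level of all 9 genes listed for lacrimal, Harderian and Meibomian glands was 3.67, 3.49, 4.72 and 4.70 in R6/2 arrays, against 4.54, 5.74, 3.53 and 5.56 in WT arrays, and 3.36 to 3.67 at 6 months in both genotypes. This mean was near the same in R6/2 replicates 3 and 4 and WT replicate 1, but its members differed. Elovl3 was 3.04, 7.14 and 6.04 in these arrays, and Krt8 and Krt79 were low in all of them. Other genes of the list had another pattern. Pip, a secreted protein of lacrimal glands, was 1.61, 1.79, 7.27 and 1.68 in R6/2 arrays, against 1.63, 5.25, 1.80 and 1.95 in WT arrays, and Aqp5, a water channel, was 7.71 to 8.02 in R6/2 arrays, against 7.03 to 7.75 in WT arrays. Awat1 and Awat2, wax synthases of the Meibomian gland, were at most 2.59 in every array. Epcam, a cell adhesion protein of epithelia, was 6.65 and 7.05 in WT replicates 2 and 4, whereas it lay between 4.55 and 5.0 in R6/2 arrays. R6/2 replicate 4 had Elovl3 at 7.14, Krt8 at 4.98 and Krt79 at 2.98. The part of gland tissue in the keratin values was not tested. In RNA of a whole eye, fewer cells of a type, less attached tissue and less RNA per cell cannot be told apart.

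**Figure D4:**
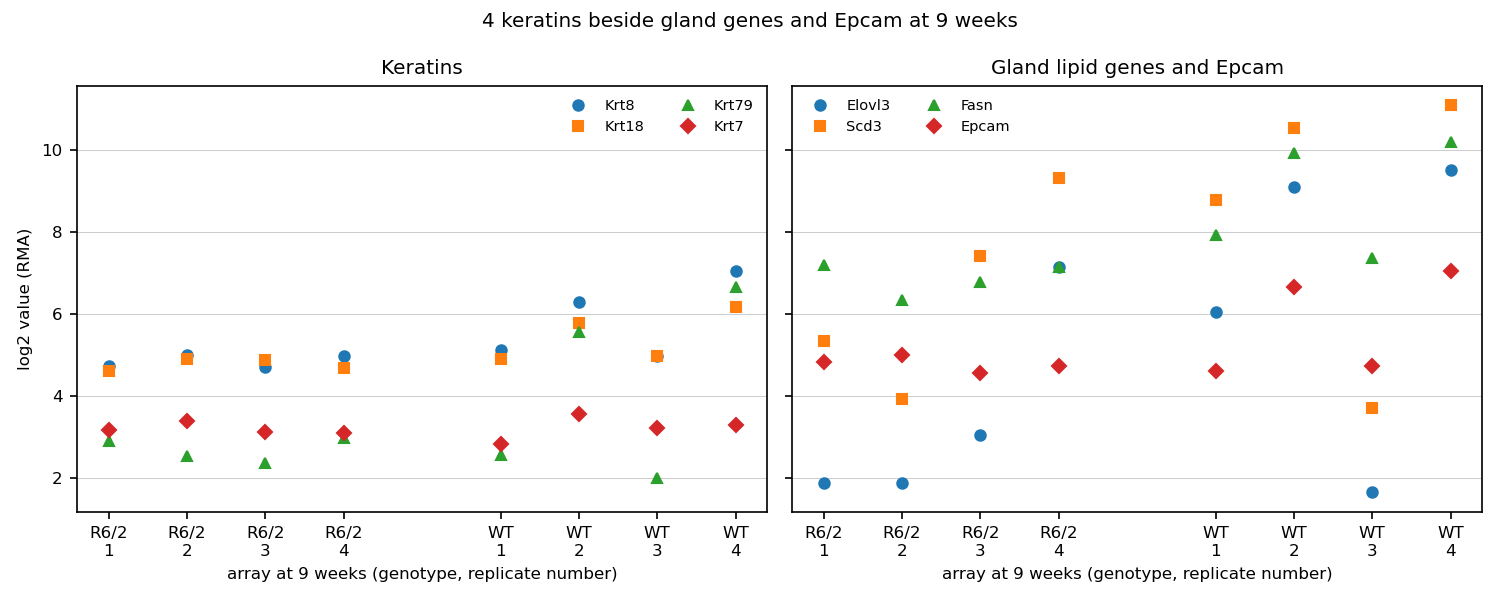
Log2 value (RMA) of Krt8, Krt18, Krt79 and Krt7 (left) and of Elovl3, Scd3, Fasn and Epcam (right) in each array at 9 weeks, with R6/2 replicates left of WT replicates. WT replicates 2 and 4 hold the highest values of Krt8, Krt18, Krt79, Elovl3, Scd3, Fasn and Epcam.

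The WT arrays at 6 months were set against those at 9 weeks to describe keratins with age. Of 28 keratins tested, 4 fell (14.3%), where 11.5% of all genes were called lower, and none rose, where 7.74% were called higher. The 4 were Krt4, Krt7, Krt8 and Krt79. With unadjusted p below 0.05 there were 6 keratins, all lower, where 21.6% of all genes had such a p. The median log2 difference was -0.12 over the 28, beside 0.00 over all genes tested, with 21 lower and 7 higher. Each age was a cohort of its own, so that age and the handling of the cohort cannot be told apart.

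Krt4 was 5.22, 4.97, 4.18 and 4.67 in WT arrays at 6 months, against 6.81, 6.71, 6.25 and 6.47 in WT arrays at 9 weeks. Every array at 6 months was below every array at 9 weeks. Krt4 was lower by 1.80 ± 0.36 on the log2 scale (SE, 3.48-fold, adjusted p = 0.0193, limma), and it was called under all 30 alternatives, between -1.95 and -1.57. Its partner Krt13 was 5.21, 6.10, 4.42 and 6.10 in WT arrays at 6 months, against 5.53, 5.73, 5.37 and 5.57 at 9 weeks, with a log2 difference of -0.09 (95% interval -0.82 to 0.64). Values of Krt13 at 6 months lay on both sides of those at 9 weeks. The corneal Krt12 was 10.02, 10.56, 9.83 and 10.39 at 6 months, against 10.07, 9.95, 10.07 and 9.54 at 9 weeks. These overlapped, with a log2 difference of 0.29 (95% interval -0.06 to 0.65). Krt15 was 6.76, 6.55, 6.48 and 6.44 in WT arrays at 6 months, against 7.14, 7.17, 7.09 and 6.87 at 9 weeks. These groups did not overlap, but the difference of -0.51 ± 0.23 (SE) had an adjusted p of 0.207 by limma. Krt19, a keratin of simple epithelia, was 3.33, 2.94, 2.62 and 3.12 in WT arrays at 6 months, against 3.93, 3.55, 3.46 and 3.52 at 9 weeks. Thus 3 of 53 keratins (5.66%) did not overlap and were lower, beside 3.64% of all genes, and Krt78 (1.89%) did not overlap and was higher, beside 2.32%.

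The other calls rested on few arrays. Krt8 was lower by 0.99 ± 0.32 on the log2 scale (SE, adjusted p = 0.0969, limma) and Krt79 by 1.78 ± 0.70 (adjusted p = 0.153). Without WT replicates 2 and 4 at 9 weeks the differences were -0.18 for Krt8 and 0.15 for Krt79, and Krt4 alone was called. Krt7, which was 3.09, 3.06, 2.65 and 2.24 in WT arrays at 6 months, against 2.82, 3.55, 3.22 and 3.28 at 9 weeks, was lower by 0.46 ± 0.19 (adjusted p = 0.178). Krt6b, Krt6a, Krt80 and Krt14 overlapped between ages, with differences of -0.05, -0.22, -0.15 and -0.40. Krt18, outside the genes tested, had a mean of 4.85 in WT arrays at 6 months and 5.45 at 9 weeks. It was 4.90, 5.23, 4.33 and 4.95 at 6 months, against 4.90, 5.77, 4.96 and 6.17 at 9 weeks. The lowest value of Krt7 was in the array labelled WT replicate 4, and counting that array as R6/1 gave -0.29 (adjusted p = 0.490, limma).

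The R6/1 change and the R6/2 change were also compared. None of the 28 keratins was called, nor was any gene (0% called higher and 0% called lower). With unadjusted p below 0.05 there was 1 keratin, Krt8, with a difference between the changes of 1.07 ± 0.48 (SE, limma), and 2.72% of all genes had such a p. For Krt4 the R6/1 change was 0.78 and the R6/2 change was -0.16, and their difference had a 95% interval of -0.17 to 2.04.

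Among the 43 dim keratins means ran between 1.38 and 3.90, and only Krt10 and Krt79 were above the bright limit in any array. Krt10, the suprabasal keratin of epidermis, was 3.90, 4.33, 3.87 and 3.80 in R6/2 arrays, against 3.53, 5.42, 4.08 and 3.49 in WT arrays at 9 weeks. The value of WT replicate 2 was the highest of all. Krt77, an epidermal keratin of skin, was 4.20 in WT replicate 2 and 2.06 to 2.39 in the other WT arrays at 9 weeks. Hair shaft keratins had means of 1.84 to 3.77 and inner root sheath keratins of 1.73 to 3.28.

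Partners of keratin filaments and other genes of the ocular surface were read beside the keratins. For the comparison of ages, 11.5% of all genes tested were called lower, and the counts of these short lists are given beside that share. Far fewer genes were called in the models, at 0.0361% higher and 0.018% lower in R6/1 and 0.0721% and 0.0992% in R6/2. Of 18 desmosome, hemidesmosome and plakin genes, 13 were tested. None was called in R6/1 or in R6/2, and 2 were lower in WT at 6 months than in WT at 9 weeks. These were Perp, a desmosomal membrane protein (-0.62, adjusted p = 0.0827, limma), and Itga6, an integrin chain of hemidesmosomes (-0.63, adjusted p = 0.155). Dsp, desmoplakin, which ties keratins to desmosomes, lay between 6.49 and 7.61 in all arrays. Of 12 corneal epithelium genes tested, none was called in R6/1 or R6/2. In R6/2 their median log2 difference was -0.18, beside 0.03 over all genes tested. There 3 of the 12 had an unadjusted p below 0.05 (limma), which 10% of all genes had. These were Esrp1 (-1.19), Epcam (-0.99) and Gjb2 (-0.48). In WT at 6 months 3 were lower, namely Epcam (-1.49, adjusted p = 0.0590, limma), Esrp1 (-1.22) and Cdh1 (-0.89). The median log2 difference of the 12 between ages was -0.28. Aldh3a1 of the same list overlapped, with 8.52 to 9.37 in WT arrays at 6 months, against 8.46 to 9.09 at 9 weeks. Of 5 conjunctival and mucin genes tested, none was called in R6/1 or R6/2, and 2 were lower in WT at 6 months, namely the membrane mucin Muc1 (-2.73, adjusted p = 0.0426, limma) and Psca (-0.38). Muc1, Epcam, Esrp1 and Cdh1 were highest in WT replicates 2 and 4 at 9 weeks, and Muc1 was 8.40 and 9.06 there. Of 7 cornified envelope genes tested, none was called in any comparison. Of 13 keratin-associated proteins of hair that were tested, none was called in R6/1 or R6/2, and 2 were lower in WT at 6 months. Of the 6 gland genes tested, 3 were lower in WT at 6 months, namely Elovl3 (-4.78, adjusted p = 0.0640), Scd3 (-3.90) and Fasn (-2.36).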

How the data were processed

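Total RNA of mouse eyeballs was measured on 15 arrays (Mouse Gene 2.1 ST, Affymetrix). Background correction, normalization and summary of probes were done by the authors with RMA, and the deposited unit is log2. The build of the probe design is not given in the sources used here. Depth does not apply to arrays, and their number limits precision.

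Of 41345 probe sets, 23521 had 1 symbol, 1820 several and 16004 none in the platform annotation. The level of each keratin was set against the upper quartile of all probe sets to call it bright or dim. Values of different probe sets are not read here as relative amounts of transcript. The methods name a filter on low variance but not its measure or limit; here the upper 50% by interquartile range (11090 of 22180 genes) were tested, which left out 25 keratins including Krt12 and Krt18. The model had 4 group means (limma, version 3.58.1, run under R 4.3.3), and calls needed p below 0.05 and Benjamini-Hochberg adjusted p below 0.2. Intervals came from a fit of all genes, except those of the difference between changes. The fit was tested on simulated data. These values were drawn independently for each gene and array, so that test does not cover deviations shared by the genes of an array.

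Members and lists were chosen with earlier results of these data known. Named were bright and called keratins, up to 3 members of each companion list with the lowest p, and some of the eyeball transcripts. Aldh3a1, Dsp, Awat1, Awat2, Krt10, Krt19, Krt23, Krt77, Krt78 and Krt81 were named after their values were seen, and Pip and Krt1 were also named outside this rule. A Krt5 probe set was planned for but carries 2 symbols.

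Deviations of same-numbered arrays at 6 months had r of 0.41, 0.34 and 0.75. Differently numbered arrays ran from -0.55 to 0.31, the latter for R6/1 replicate 2 with WT replicate 1. The value of 0.75 joins the replicates 3, which both have a narrow range of values. These r therefore do not settle whether numbers pair samples. The labels name no pairing, and a block did not change the count at 6 months. Alternatives covered filters, normalization, array weights, the array label, replicate blocks and left-out arrays.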

Additional observations from a re-analysis of the deposited data

Results flagged for a closer look

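In groups of 4 arrays, 1 array was farther from the rest than Dixon's limit allows in 3 of 45 groups examined. Chance gives about 1 in 20 for groups chosen before their values are seen. The count cannot be set against that rate. Among the genes examined, Krt10 and Krt77 were named after their values were seen and Krt1 was named outside the rule. The group of Krt79 passed the limit only narrowly. Krt79 was 2.99 in WT replicate 3 at 6 months, whereas it was 2.13 to 2.28 in the other WT arrays of that age. Krt1 was 3.27 in the same array, whereas it was 2.95 to 2.96 in the others. That array has the narrowest range of values of all arrays. Krt77 was 4.20 in WT replicate 2 at 9 weeks, whereas it was 2.06 to 2.39 in the others.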

How the results depend on the processing

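Each count of called keratins was recomputed under 28 alternatives, and 30 for the comparison of ages. No keratin was called in R6/1, or in the difference between changes, under any of these 28. For R6/2 the count of 0 became 3 with the interquartile range as covariate, 5 with array weights, 1 (Krt8) with the replicate block and 4 without the 3 arrays of narrow range, and was 0 to 3 when 1 array was left out, namely 2 without WT replicate 1 and 3 without WT replicate 3 at 9 weeks. For age the count of 4 became 1 with an adjusted p below 0.05, 1 with the arrays of both groups alone, 7 with quantile normalization, 7 with array weights, 2 with the array labelled WT replicate 4 counted as R6/1, 6 with the replicate number as a block across ages, and 1 without WT replicates 2 and 4 at 9 weeks. It was 1 to 6 when 1 array was left out, with 1 without the array labelled WT replicate 4 at 6 months or without WT replicate 2 or 4 at 9 weeks, and 2 without R6/1 replicate 1, R6/2 replicate 1 or R6/2 replicate 3. The causes were not tested. Krt79 turned to 0.43 in R6/2 and 0.15 with age without WT replicates 2 and 4 at 9 weeks. Same-numbered arrays of the 9-week cohort showed no joint deviation (r of -0.29 to 0.26), so that a pairing by number was not seen there. Leaving out WT replicates 2 and 4 at 9 weeks, the block across ages, and leaving out the narrow arrays together with the array labelled WT replicate 4 were chosen after seeing the data.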

Other observations

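WT replicate 2 at 9 weeks differed from WT replicate 4, its companion in Krt8 and Krt79, in transcripts of epidermis. Krt10 was 5.42 in replicate 2 and 3.49 in replicate 4, and Krt77 was 4.20 and 2.06. Krtdap, a gene of differentiating keratinocytes, was 3.90 in replicate 2 and 1.96 in replicate 4, and Dmkn, dermokine, was 4.40 and 3.0. These genes were picked after their values were seen, and no test was made.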
